A study of Oryza sativa Japonica Group with 6 samples.

Results

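The core and linker histone genes of rice were followed in grains of the sgs3 mutant and of its wild type, Zhenong 34. Members were taken by the words of the deposited gene description, which had to name histone H1, H2A, H2B, H3 or H4 and no histone-modifying enzyme or chaperone. The rule found 59 of the 55983 genes in the table: 4 for H1, 17 for H2A, 9 for H2B, 18 for H3 and 11 for H4. A pair of H2B genes that the same words match was left out by the rule: LOC_Os01g05610 had 43.6, 52.2 and 81.3 TPM in sgs3 against 5.81, 1.79 and 2.37 TPM in WT, and LOC_Os01g05630 had 0.08, 0.27 and 0.32 TPM in sgs3 against 162, 73.4 and 125 TPM in WT. The sgs3 group (3 libraries) is labelled with EMS, a chemical that makes mainly point mutations, and the WT group (3 libraries) carries the treatment label Control. All libraries were made from grains, with no stage given, and the label for cells reads only grain cells. The labels do not say whether each library was a plant of its own, and the p-values therefore rest on a spread among libraries that may be technical only. The labels give neither the mutated base nor the number of mutant lines.

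Histones are the small basic proteins around which DNA is wound. An H3-H4 tetramer and a pair of H2A-H2B dimers form the core of the nucleosome, and H1 binds the linker DNA where it enters and leaves. Replication-type histones are made mostly in S phase, when new chromatin must be packed, whereas replacement variants such as H3.3 and H2A.Z are made throughout the cell cycle and in cells that no longer divide. In the cereal endosperm the nuclei first divide freely and are then walled off, and cells later stop dividing and fill with starch and storage protein. Many plant histone genes are near-identical copies, and the sources used here do not say how reads shared between copies were assigned, so the value of a single copy is less certain than a class sum.

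The label was checked against the other annotation columns. A histone name in KEGG or a histone protein domain was recorded for 54 of the 59 members. The other 5 were histones by description only. LOC_Os02g23890, described as an H2A variant 3, carried the KEGG name and the domain of the secretion protein SEC62. LOC_Os02g39030, described as H3.v1, carried those of a protein phosphatase 1 inhibitor. Of these 5, the pair just named was expressed enough to be tested. All 5 stay among the histone genes in the counts, medians and sums below, but not in the shares within histone transcripts.

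Gene values are TPM, transcript levels scaled for transcript length and for the total of each library, so levels of different genes can be set side by side. The deposited TPM summed to between 967526 and 994306 per library, and the read depth behind them is unknown. The libraries differed in makeup. Transcripts of 48 genes for glutelins, prolamins and granule-bound starch synthase, markers of starchy endosperm, took 42.8%, 37.0% and 38.0% of the sgs3 libraries against 4.45%, 30.7% and 23.7% of the WT libraries. Ribosomal protein transcripts (210 genes) took 0.636%, 0.628% and 2.54% in sgs3 against 16.4%, 3.68% and 6.62% in WT. Both lists separated every sgs3 library from every WT library, and the lists that follow did not. Embryo and aleurone markers (18 genes) took 0.357% to 0.455% in sgs3 and 0.118% to 0.639% in WT. Markers of green maternal tissue (71 genes) took 0.00292% to 0.0452% in sgs3 and 0.00403% to 0.0425% in WT. The genes at 0 in all libraries numbered 2 of the endosperm list, 9 of the ribosomal, 0 of the embryo and 12 of the green list. Of 2 genes annotated as SGS3, LOC_Os12g09580 had 8.73, 11.6 and 29.2 TPM in sgs3 against 94.9, 40.9 and 53.5 TPM in WT, and LOC_Os12g09590 had 2.03 to 3.40 TPM in sgs3 against 3.36 to 3.67 TPM in WT; a point mutation need not change transcript levels, so this does not check the labels. In such whole-grain libraries, fewer cells of a type and less RNA per cell cannot be told apart.

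Histone transcripts took a smaller part of every sgs3 library than of any WT library. The 59 genes summed to 1288, 1798 and 2377 TPM in sgs3 against 6425, 2540 and 4451 TPM in WT, which is 0.184% ± 0.0553 of library TPM in sgs3 and 0.458% ± 0.204 in WT (SD, n = 3 each). The gap between the highest sgs3 library and the lowest WT library was small beside the spread within WT. Sums of H2A, H2B, H3 and H4 also lay lower in every sgs3 library than in any WT library, while those of H1 overlapped. These sums depend on the scaling between libraries described further on: after median-of-ratios scaling the log2 ratio of the sums, sgs3 over WT, was 0.0889 for H3 and 0.36 for H1, against -0.98 and -0.68 on TPM, and it was -0.22 for all members, against -1.30 on TPM.

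**Figure D1:**
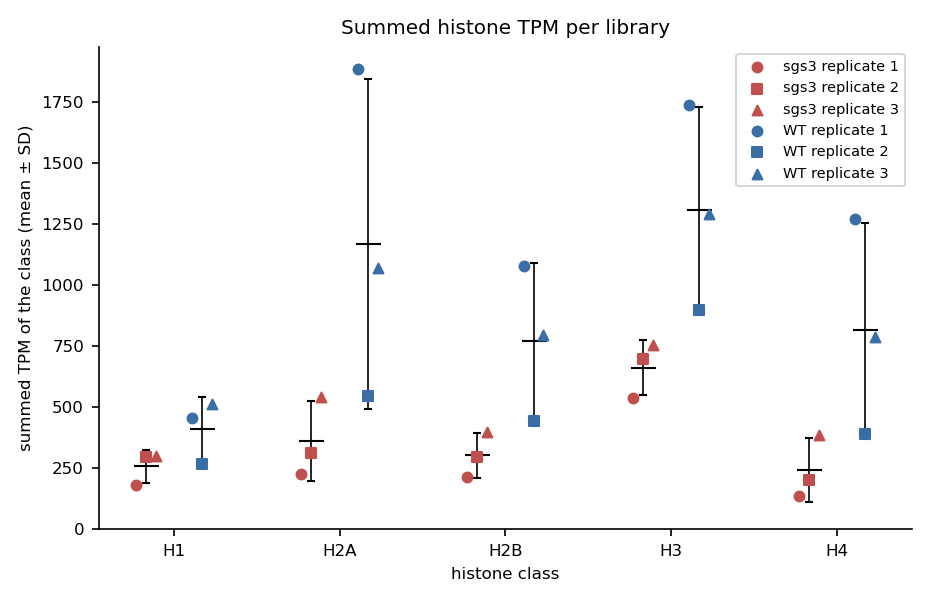
Summed TPM of each histone class in each library (points, y axis from 0), with sgs3 left of WT and the mean ± SD of 3 libraries in black. Only the H1 points of both groups overlap; WT replicate 1 is the highest point for H2A, H2B, H3 and H4, and sgs3 replicate 3 lies just below WT replicate 2 for H2A and H4.

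Gene by gene, 19 of the 49 histone genes that could be tested fell in sgs3, 0 rose and 30 did not pass (limma on log2(TPM + 1), adjusted p under 0.05 over all 16352 tested genes). The background is large: 26.3% of all tested genes fell and 1.55% rose. The median log2 fold change, sgs3 over WT, was -1.76 over the histone genes and -0.86 over all tested genes. Values were lower on average in sgs3 for 48 of the 49, and 34 had an unadjusted p under 0.05, all of them lower in sgs3. The same shares over all tested genes were not counted, here or for such counts in the other fits below. No excess among histone genes can therefore be read from counts of signs or of unadjusted p-values. In 20 of the 49 every sgs3 library lay below every WT library, which was so for 52.6% of all tested genes. Lack of overlap in a single gene, as given below, was therefore common over all genes. Without the 2 tested members that are histones by description only, 47 were tested. Of these 47, 19 fell on TPM, 18 showed no overlap between groups, and the median log2 fold change was -1.81. The filter, at least 1 TPM in at least 3 libraries, was met by 8 of the 49 with fewer than 3 sgs3 libraries at that level. Such genes needed WT libraries to enter, so these counts describe the set and support nothing further. The 10 untested members included 3 at 0 in all libraries, and none passed 1.92 TPM in any library.

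Scaling between libraries changes what was called. With median-of-ratios scaling, which sets the typical gene equal between libraries, the median over all tested genes was -0.05 and that over the histone genes -0.85. After it 2 histone genes fell and 0 rose, beside 1.02% of all tested genes that fell and 1.81% that rose; 19 of the 49 had an unadjusted p under 0.05, 18 of them lower in sgs3. On that scale 35 histone genes had negative and 14 positive fold changes. Every sgs3 library lay below every WT library in 10 of the 49, against 20.6% of all tested genes. When storage genes were removed and TPM rescaled, 2 histone genes fell, beside 1.39% of all genes, and the median was -1.45 over the histone genes against -0.59 over all genes.

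The libraries ranked alike across most members. WT replicate 1 was the highest library for 42 of the 49 tested genes and WT replicate 3 for the other 7. WT replicate 2 was the lowest WT library for 47, and sgs3 replicate 1 was the lowest of all libraries for 46. Both sgs3 replicates 1 and 2 lay below every WT library for 43 genes, while sgs3 replicate 3 lay above WT replicate 2 for 27. The number of calls changed with the library left out: 32 histone genes fell without sgs3 replicate 3 (37.0% of all genes) and 36 without WT replicate 2 (46.3% of all genes). Without WT replicate 1 there were 2 (0.929% of all genes), and without sgs3 replicate 1, sgs3 replicate 2 or WT replicate 3 there were 0 by limma, with 16, 23 and 26 lower at an unadjusted p under 0.05. In these last 3 fits 0.204%, 0.219% and 0.0589% of all genes fell.

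**Figure D2:**
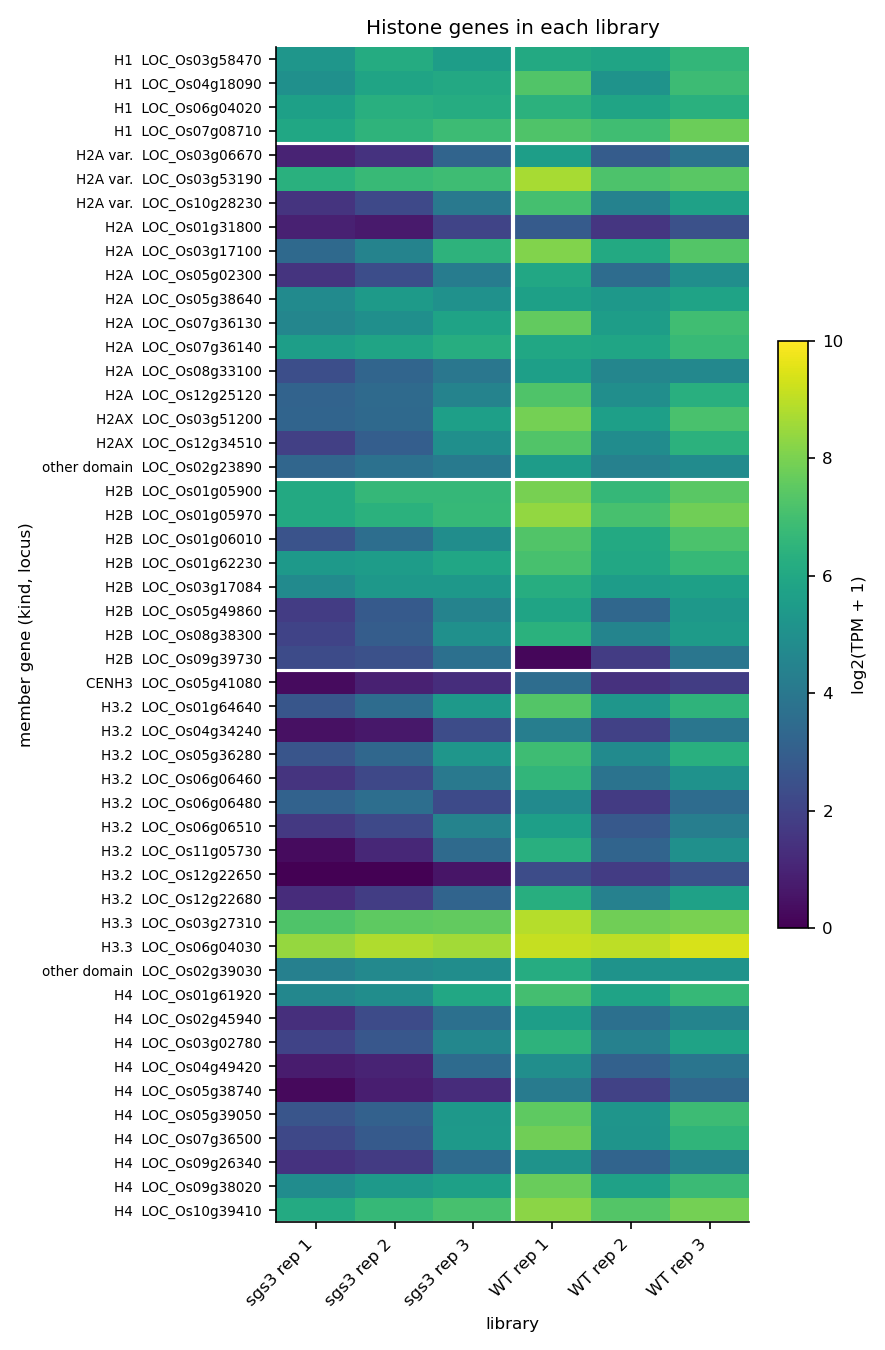
Level of the 49 tested histone genes (rows, by class) in each library (columns, sgs3 left of the white line, WT right of it), as log2(TPM + 1) in colour. WT replicate 1 is the brightest column for 42 rows and sgs3 replicate 1 the darkest for 46, and the H3.3 genes stay bright in all 6 libraries.

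The H3 genes are of different types. Of 9 H3.2 genes, the replication type, 6 fell on TPM (median log2 fold change -2.25), beside 26.3% of all tested genes. The H3.3 genes, the replacement type, numbered 4, of which 2 were tested and 0 fell (0 with an unadjusted p under 0.05 either), with a median of -0.68. After scaling the H3.2 median was -1.56 and the H3.3 median 0.35. The difference between the types was not tested, and the H3.2 gene LOC_Os06g06480 (-0.34 on TPM, 0.60 after scaling) lay above both H3.3 genes.

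The 2 histone genes called on both scales are H3.2 genes with nearby locus numbers on chromosome 12. LOC_Os12g22680 had 1.40, 2.49 and 8.37 TPM in sgs3 against 75.7, 20.2 and 52.3 TPM in WT. LOC_Os12g22650 had 0.00, 0.00 and 0.48 TPM in sgs3 against 4.0, 2.43 and 4.64 TPM in WT. No sgs3 library of either gene reached the lowest WT library. On TPM the log2 fold change of LOC_Os12g22680 was -3.37 (SE 0.62, limma adjusted p = 0.0315), and after scaling it was -2.50 (adjusted p = 0.0404). For LOC_Os12g22650 it was -2.01 (SE 0.32, adjusted p = 0.0176) before scaling and -1.60 (adjusted p = 0.0214) after it; its sgs3 values near 0 hold this fold change on the log2(TPM + 1) scale below the ratio of the means. LOC_Os12g22650 was the one tested member under 1 TPM in all 3 sgs3 libraries, so it entered the test through WT alone. Without sgs3 replicate 1 or sgs3 replicate 2 neither gene passed on TPM (adjusted p of 0.188 and 0.155 for LOC_Os12g22680, 0.166 and 0.154 for LOC_Os12g22650). LOC_Os12g22680 also missed without WT replicate 3 (0.109), and LOC_Os12g22650 did not meet the filter once any WT library was left out. After scaling LOC_Os12g22680 passed without sgs3 replicate 3 or WT replicate 2 (adjusted p of 0.0287 and 0.0499) and missed without any of the other 4 libraries (0.109 to 0.240).

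Between them lies LOC_Os12g22660, a gene with no description, named here after its values were seen. It had 0.22, 0.88 and 1.52 TPM in sgs3 against 23.7, 3.08 and 9.78 TPM in WT, and fell on TPM (log2 fold change -2.52, limma adjusted p = 0.0436) but not after scaling (-1.86, adjusted p = 0.0790). On TPM it passed without sgs3 replicate 3 or WT replicate 2 and missed without any of the other 4 libraries. LOC_Os12g22670 and LOC_Os12g22690 were at 0 in all libraries.

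The other H3.2 calls were made on TPM alone. LOC_Os11g05730 had 0.22, 1.14 and 9.99 TPM in sgs3 against 79.0, 8.46 and 31.5 TPM in WT (-3.25, SE 0.94, limma adjusted p = 0.0442). Its sgs3 replicate 3 lay above WT replicate 2, as it did for LOC_Os01g64640 (5.45, 10.8 and 41.2 TPM in sgs3 against 159, 37.1 and 88.9 TPM in WT). LOC_Os04g34240 (-2.24) and LOC_Os06g06460 (-2.59) fell too, again with overlapping libraries. Of the H3.2 genes that did not pass, LOC_Os05g36280 (-2.25, adjusted p = 0.0518) and LOC_Os06g06510 (-1.45, adjusted p = 0.187) also had sgs3 replicate 3 as their highest sgs3 library and above WT replicate 2. In LOC_Os06g06480 it was the lowest sgs3 library. This gene had 7.89, 11.2 and 3.76 TPM in sgs3 against 26.7, 2.31 and 10.5 TPM in WT, and its locus number lies between those of LOC_Os06g06460 and LOC_Os06g06510.

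The 2 tested H3.3 genes were the most abundant histone transcripts by their mean over all 6 libraries. LOC_Os06g04030 had 342, 444 and 389 TPM in sgs3 against 562, 518 and 667 TPM in WT. LOC_Os03g27310 had 149, 183 and 193 TPM in sgs3 against 470, 225 and 254 TPM in WT. Both were lower in every sgs3 library than in any WT library, yet neither difference passed, with limma adjusted p-values of 0.239 for the first (-0.57, SE 0.38) and 0.149 for the second (-0.78, SE 0.41). After scaling the same differences were 0.46 and 0.25. LOC_Os05g41080, the centromeric H3 that marks where the kinetochore forms, had 0.21, 0.89 and 1.46 TPM in sgs3 against 10.8, 1.69 and 2.57 TPM in WT (-1.44, adjusted p = 0.0714).

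All 10 tested H4 genes had negative fold changes on both scales, the only class of which this held. On TPM 6 fell, beside 26.3% of all tested genes, with a class median of -2.20. The other 4 had limma adjusted p-values of 0.0532 to 0.0608. After scaling the median was -1.38 and 0 passed, with 6 at an unadjusted p under 0.05. H4 has no replacement variant among these genes, and the proteins of plant H4 copies are near-identical. LOC_Os05g38740 had 0.19, 0.80 and 1.40 TPM in sgs3 against 16.8, 2.92 and 9.21 TPM in WT (-2.37, SE 0.56, adjusted p = 0.0436). LOC_Os05g39050 had 5.15, 7.54 and 39.2 TPM in sgs3 against 180, 36.6 and 113 TPM in WT (-2.84, SE 0.79, adjusted p = 0.0436). The first pair of groups did not overlap and the second did, through sgs3 replicate 3 and WT replicate 2. The other 4 that fell had log2 fold changes of -3.06 (LOC_Os07g36500), -2.45 (LOC_Os03g02780), -2.16 (LOC_Os02g45940) and -2.04 (LOC_Os09g26340). The most abundant H4 gene, LOC_Os10g39410, had 68.1, 103 and 137 TPM in sgs3 against 308, 158 and 242 TPM in WT and did not pass (-1.20, adjusted p = 0.0593; -0.17 after scaling). The next, LOC_Os09g38020, had 27.9, 40.7 and 49.96 TPM in sgs3 against 208, 52.0 and 113 TPM in WT and did not pass either (-1.45, adjusted p = 0.0608). Neither overlapped between groups. LOC_Os04g49420, which also matches an expansin in Swiss-Prot, had a fold change of -2.24 (adjusted p = 0.0532).

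**Figure D3:**
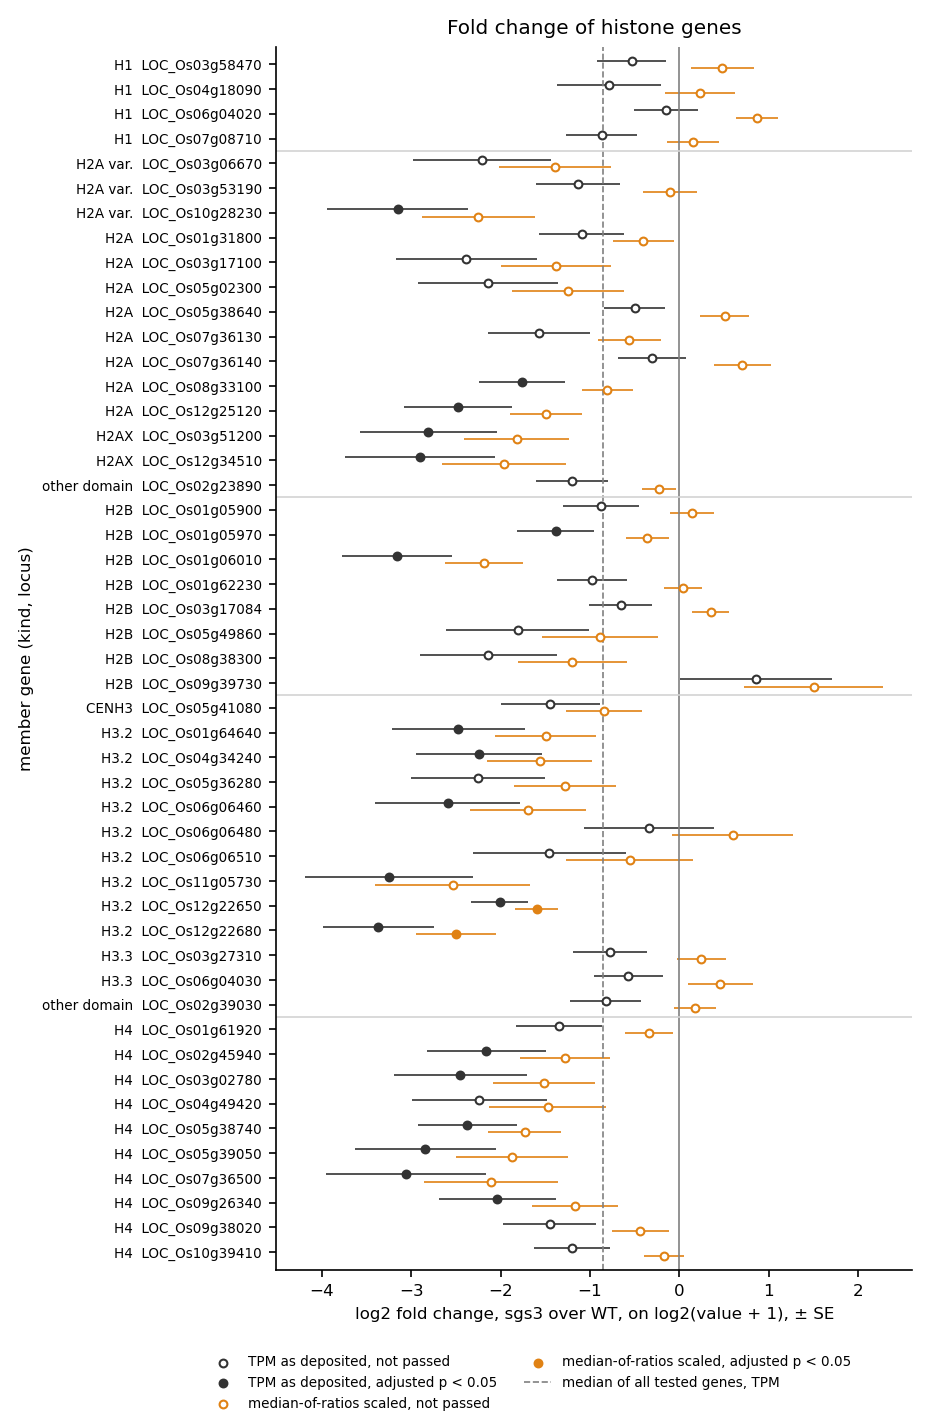
Log2 fold change, sgs3 over WT, of the 49 tested histone genes by class, ± SE from limma, on TPM as deposited (black) and after median-of-ratios scaling (orange), with filled points for adjusted p under 0.05. On TPM 19 points are filled, and 2 after scaling; the dashed line marks the median of all tested genes on TPM, -0.86, and the black H1 points lie at or right of it.

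Among the H2A genes, 5 of 14 tested fell on TPM (median -1.95) and 0 after scaling (median -1.03, 5 with an unadjusted p under 0.05). Over all tested genes 26.3% fell on TPM and 1.02% after scaling. The 14 include LOC_Os02g23890, which has the SEC62 annotation and did not pass (-1.20, limma adjusted p = 0.0531). Both H2A.X genes fell; H2A.X carries the tail serine that is phosphorylated at DNA breaks. H2AXa, LOC_Os03g51200, had 8.27, 9.70 and 49.7 TPM in sgs3 against 242, 49.5 and 139 TPM in WT (-2.81, SE 0.76, limma adjusted p = 0.0436). H2AXb, LOC_Os12g34510, had 2.67, 6.89 and 30.8 TPM in sgs3 against 155, 27.8 and 84.4 TPM in WT (-2.90, SE 0.84, adjusted p = 0.0444). In each, sgs3 replicate 3 lay just above WT replicate 2. After scaling their adjusted p-values were 0.0992 and 0.111.

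The genes described as H2A variants 1 to 3 are of the H2A.Z type, which replaces H2A near gene starts, and 1 of these 3 fell. Variant 2, LOC_Os10g28230, had 1.81, 3.62 and 15.6 TPM in sgs3 against 131, 20.6 and 52.2 TPM in WT (-3.15, SE 0.79, limma adjusted p = 0.0436). Variant 3, LOC_Os03g53190, the most abundant H2A gene, had 79.6, 105 and 118 TPM in sgs3 against 415, 147 and 174 TPM in WT and did not pass (-1.13, adjusted p = 0.0833; -0.11 after scaling). Neither gene overlapped between groups. Variant 1, LOC_Os03g06670, ranged from 0.99 to 8.23 TPM in sgs3 and from 6.46 to 47.9 TPM in WT (-2.21, adjusted p = 0.0568).

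Of the genes described as H2A.1 to H2A.7, whose proteins were not examined for variant type, H2A.7 and H2A.3 fell. H2A.7, LOC_Os12g25120, had 8.04, 9.91 and 21.1 TPM in sgs3 against 152, 29.7 and 78.9 TPM in WT (-2.48, limma adjusted p = 0.0436). H2A.3, LOC_Os08g33100, had 4.34, 8.57 and 14.5 TPM in sgs3 against 49.5, 22.8 and 24.7 TPM in WT (-1.76, adjusted p = 0.0436). Neither overlapped between groups. The neighbours H2A.1, LOC_Os07g36130, and H2A.2, LOC_Os07g36140, gave different values: H2A.1 had 23.1, 30.6 and 54.9 TPM in sgs3 against 193, 45.9 and 122 TPM in WT (-1.57, adjusted p = 0.0613). H2A.2 had 48.01, 56.5 and 73.3 TPM in sgs3 against 61.5, 57.9 and 107 TPM in WT (-0.31, adjusted p = 0.507; 0.70 after scaling). The difference between these neighbours was not tested. H2A.5, LOC_Os03g17100, the most abundant of these numbered H2A genes in WT, had 9.60, 21.0 and 86.9 TPM in sgs3 against 272, 65.9 and 158 TPM in WT. It did not pass (-2.38, adjusted p = 0.0516). H2A.4, LOC_Os05g38640, had 26.5 to 42.6 TPM in sgs3 and 38.9 to 54.2 TPM in WT (-0.50, adjusted p = 0.243; 0.50 after scaling). A second gene described as H2A.5, LOC_Os01g31800, did not pass (-1.09, limma adjusted p = 0.0954). Nor did the tested H2A.6 gene, LOC_Os05g02300 (-2.14, limma adjusted p = 0.0632). In both of these the groups overlapped.

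Of 8 tested H2B genes 2 fell, and 0 after scaling (1 with an unadjusted p under 0.05). Over all tested genes 26.3% fell on TPM and 1.02% after scaling, so the H2B count on TPM is near the share over all genes. H2B.5, LOC_Os01g06010, had 4.90, 11.1 and 29.2 TPM in sgs3 against 155, 66.9 and 144 TPM in WT (-3.16, SE 0.61, limma adjusted p = 0.0380; -2.18, adjusted p = 0.0520 after scaling). H2B.6, LOC_Os01g05970, had 66.1, 83.3 and 103 TPM in sgs3 against 334, 134 and 229 TPM in WT (-1.38, SE 0.43, adjusted p = 0.0473; -0.36 after scaling). Neither overlapped between groups. H2B.10, LOC_Os01g05900, with a nearby locus number, had 65.5, 100 and 101 TPM in sgs3 against 243, 101 and 171 TPM in WT and did not pass (-0.88, adjusted p = 0.123; 0.14 after scaling). In it the highest sgs3 library and the lowest WT library were level. The H2B numbers used here follow the gene description. Swiss-Prot matches number these genes otherwise: H2B.3 for LOC_Os01g06010, H2B.5 for LOC_Os01g05970 and H2B.7 for LOC_Os01g05900. A second gene described as H2B.10, LOC_Os09g39730, also matches a flavanone 3-dioxygenase in Swiss-Prot and was the one member with a positive fold change on TPM. It had 3.83, 4.57 and 12.1 TPM in sgs3 against 0.13, 2.45 and 14.2 TPM in WT (0.86, SE 0.85, adjusted p = 0.414), with overlapping groups. H2B.2, LOC_Os08g38300, did not pass on TPM (-2.14, limma adjusted p = 0.0603) or after scaling (-1.20, adjusted p = 0.208). Its groups overlapped, with 31.01 TPM in sgs3 replicate 3 and 21.58 TPM in WT replicate 2.

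Of the 4 linker histone genes 0 fell or rose on either scale by limma, with 0 at an unadjusted p under 0.05 on TPM and 1 after scaling. On TPM their median fold change was -0.66 (log2), and all 4 were positive after scaling (median 0.35). H1.1, LOC_Os07g08710, had 61.8, 89.4 and 115 TPM in sgs3 against 150, 121 and 218 TPM in WT (-0.87, SE 0.40, adjusted p = 0.108; 0.15 after scaling). LOC_Os04g18090 had 31.2, 57.0 and 64.6 TPM in sgs3 against 154, 34.4 and 114 TPM in WT (-0.79, adjusted p = 0.277). LOC_Os03g58470 had 37.3, 69.7 and 46.1 TPM in sgs3 against 66.8, 56.4 and 98.7 TPM in WT (-0.54, adjusted p = 0.270). Only H1.1 was lower in every sgs3 library than in any WT library. The fourth, LOC_Os06g04020, which has the locus number next to the H3.3 gene LOC_Os06g04030, had 49.8, 77.8 and 72.0 TPM in sgs3 against 85.4, 55.8 and 79.9 TPM in WT. Its fold change was -0.15 (adjusted p = 0.742) on TPM and 0.87 (adjusted p = 0.0817) after scaling.

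Shares within the histone transcripts do not depend on scaling between libraries. Over the 54 members with histone annotation, H1 made up 14.3%, 16.7% and 12.8% of histone TPM in sgs3 against 7.23%, 10.8% and 11.6% in WT, with no overlap. H2B made up 16.9%, 16.9% and 17.0% in sgs3 against 17.1%, 17.8% and 18.1% in WT, also without overlap but with all libraries close together. H4 took 10.7%, 11.4% and 16.6% in sgs3 and 20.1%, 15.6% and 17.9% in WT, which overlapped. Single types were then set against their own class. H3.3 made up 95.2%, 93.5% and 80.2% of H3 transcripts in sgs3 against 62.0%, 86.0% and 73.3% in WT. H2A.X made up 5.07%, 5.52% and 15.3% of H2A transcripts in sgs3 against 21.6%, 14.7% and 21.5% in WT. In both of these shares sgs3 replicate 3 and WT replicate 2 crossed, while sgs3 replicates 1 and 2 stood apart from all WT libraries. No test was made on shares, since they are scores over members chosen with results known.

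**Figure D4:**
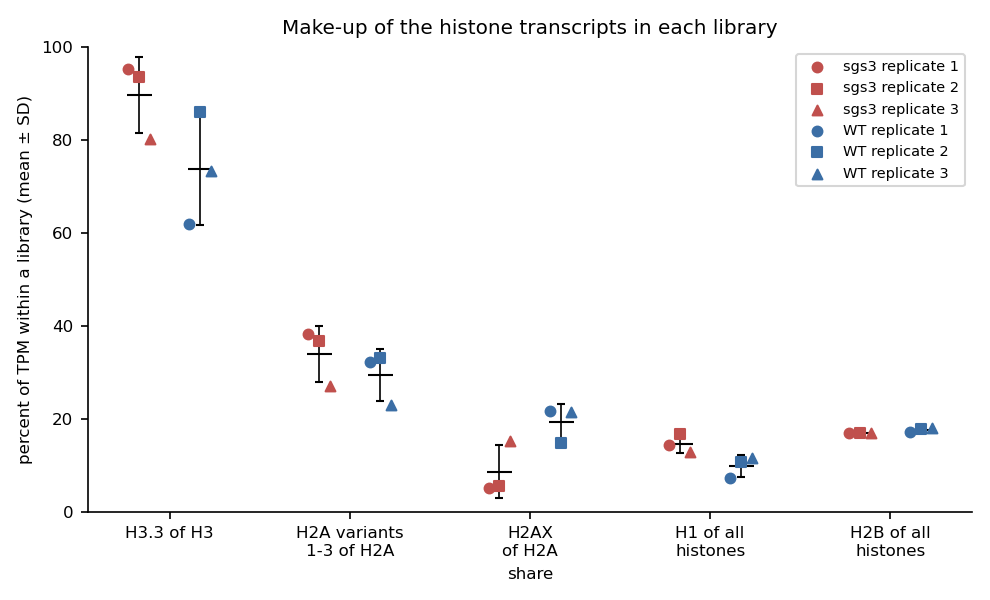
Makeup of histone transcripts in each library as percent of TPM (y axis, 0 to 100), with sgs3 left of WT and mean ± SD of 3 libraries. The H1 share, 12.8% to 16.7% in sgs3 and 7.23% to 11.6% in WT, does not overlap; the H3.3 and H2A.X shares overlap through sgs3 replicate 3 and WT replicate 2.

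Genes that work with histones were taken from lists matched on the gene descriptions. Of 34 tested DNA replication genes (41 matched) 18 fell and 0 rose on TPM, with a median of -1.66, and 0 passed after scaling (median -0.89, 20 with an unadjusted p under 0.05). Over all tested genes 26.3% fell and 1.55% rose on TPM. The 41 genes summed to 48.1, 67.9 and 163 TPM in sgs3 against 749, 196 and 487 TPM in WT, the same order of libraries as for the histone sum. MCM7, LOC_Os12g37400, a subunit of the replicative helicase, had 0.40, 1.36 and 3.87 TPM in sgs3 against 13.5, 6.69 and 24.8 TPM in WT (-2.49, limma adjusted p = 0.0436). The catalytic subunit of DNA polymerase delta, LOC_Os11g08330, had 0.59, 1.03 and 3.49 TPM in sgs3 against 12.8, 5.11 and 13.3 TPM in WT (-2.12, adjusted p = 0.0436). The small subunit of replication protein A, LOC_Os01g14980, which coats single-stranded DNA, had 2.92, 4.55 and 14.6 TPM in sgs3 against 111, 21.0 and 46.7 TPM in WT (-2.81, adjusted p = 0.0436). In all of these every sgs3 library lay below every WT library. Each of the 3 passed without sgs3 replicate 3 or WT replicate 2 and missed without any of the other 4 libraries.

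The histone chaperone list held 24 genes once oxygenase genes that matched by a chance run of letters were removed, a choice made after seeing the data. Of 20 tested, 9 fell and 1 rose on TPM (median -1.08), beside 26.3% and 1.55% of all genes in the fit. After scaling 0 fell and 1 rose (median -0.20, 8 with an unadjusted p under 0.05), beside 1.02% and 1.81% of all genes. The tested genes still included high mobility group B proteins, which matched only by an alternative name as assembly factors. Of these, LOC_Os01g47600 and LOC_Os02g27060 are among the 9 that fell, and LOC_Os02g15810 did not pass. FAS2, LOC_Os08g01680, a subunit of the CAF-1 complex that lays down H3 and H4 behind the replication fork, had 0.21, 0.22 and 0.83 TPM in sgs3 against 6.57, 1.54 and 4.91 TPM in WT (-1.80, limma adjusted p = 0.0436). With all sgs3 libraries under 1 TPM it met the filter through WT alone, where it is high. Once any WT library was left out it was not tested. With an sgs3 library left out it passed only without sgs3 replicate 3. NAP1;1, LOC_Os06g05660, a carrier of H2A and H2B, had 22.7, 26.4 and 81.6 TPM in sgs3 against 422, 104 and 176 TPM in WT (-2.40, adjusted p = 0.0436). SSRP1-A, LOC_Os01g08970, of the FACT complex that moves nucleosomes out of the way of polymerases, had 6.97, 9.11 and 16.7 TPM in sgs3 against 55.7, 21.9 and 35.5 TPM in WT (-1.69, adjusted p = 0.0436). The groups did not overlap in any of the 3. NAP1;1 and SSRP1-A passed without sgs3 replicate 3 or WT replicate 2 and missed without any of the other 4 libraries. The gene called as higher on both scales was NAP1;3, LOC_Os01g51450, named after its values were seen, with 1.20, 2.01 and 1.71 TPM in sgs3 against 0.17, 0.45 and 0.66 TPM in WT (0.89, adjusted p = 0.0457; 1.33, adjusted p = 0.0273 after scaling). It met the filter through sgs3 alone, where it is high, since all WT values were under 1 TPM. On TPM, once any sgs3 library was left out, NAP1;3 was not tested. With a WT library left out it passed only without WT replicate 2.

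**Figure D5:**
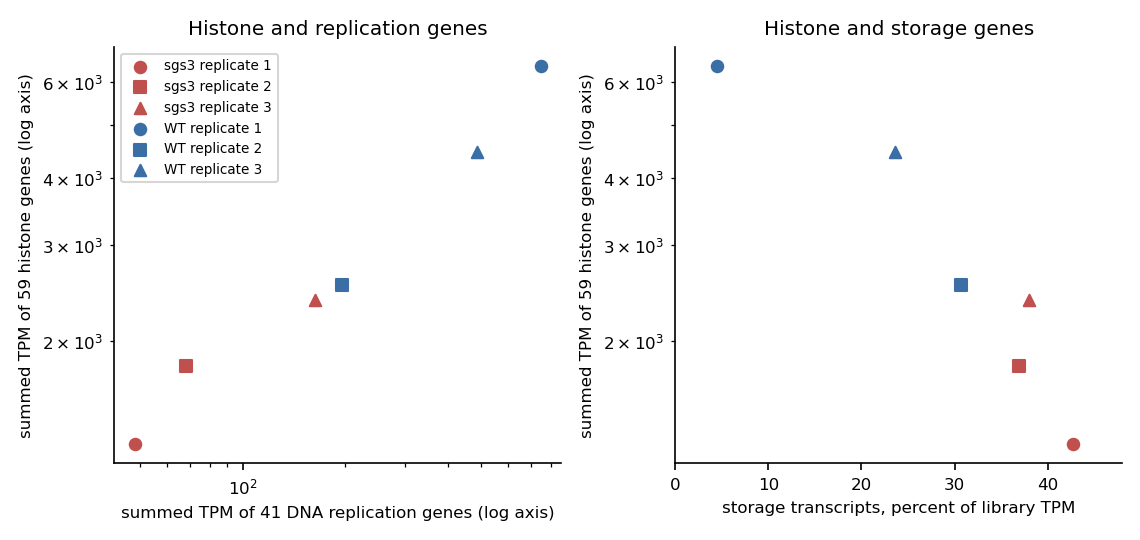
Summed TPM of the 59 histone genes in each library (y axis, log) against the summed TPM of 41 DNA replication genes (left, log axis) and against the percent of library TPM taken by storage transcripts (right). WT replicate 1 has the highest histone sum, 6425 TPM, the highest replication sum, 749 TPM, and the lowest storage share, 4.45%; sgs3 replicate 1 has the lowest sums, 1288 and 48.1 TPM, and the highest share, 42.8%.

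The storage share and the histone level ran in opposite directions at both ends. The library with the least histone transcript had the largest storage share, and the one with the most had the smallest. Between them, sgs3 replicates 2 and 3 did not follow this order. The part of endosperm makeup in the histone differences was not tested. On TPM 11 of 42 tested storage genes rose and 3 fell, and after scaling 10 rose and 0 fell. Of 188 tested ribosomal protein genes 183 fell and 0 rose on TPM, while after scaling 0 fell and 1 rose, with 182 at an unadjusted p under 0.05. The shares over all genes are those given above, 26.3% fallen and 1.55% risen on TPM and 1.02% and 1.81% after scaling.

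Few splicing events were found in member genes. The deposited splicing tables held 6 events in 3 member genes that reached 20 junction reads in each library given (4 of the 6 list 2 WT libraries, not 3), and 0 were called at adjusted p under 0.05 and a difference of at least 0.1 (quasi-binomial model with limma-moderated dispersion, 1 with an unadjusted p under 0.05). Over all genes 0.238% of 5471 events were called. The one with an unadjusted p under 0.05 is a retained intron of LOC_Os02g39030, which holds 3 of the 6 events and carries the phosphatase inhibitor annotation and no histone domain, with a mean inclusion of 0.0015 in sgs3 and 0.0155 in WT (adjusted p = 0.456 with limma-moderated dispersion). The single exon tested in H2A variant 3, LOC_Os03g53190, had 1383, 1689 and 1650 junction reads in sgs3 libraries and 4350, 1859 and 2039 in WT libraries, with at most 1 read that skipped it in any library.

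One exon of H2B.1, LOC_Os03g17084, fell short of the minimum, with 17 reads in the lowest WT library. The exon, on the plus strand at chr3:9493787-9493888 in a build that the sources used here do not name, had inclusion levels of 0.939, 0.705 and 0.873 in sgs3 and 0.496, 0.698 and 0.401 in WT. Every sgs3 value was above every WT value, by little between the lowest sgs3 and the highest WT library. The groups here follow the inclusion headings, which the read headings of the same tables contradict; under the read headings sgs3 and WT would be exchanged and this direction with them. With a minimum of 10 reads the difference of 0.307 had an adjusted p of 0.408 (unadjusted p = 0.0211), while the authors' deposited table gives an FDR of 0.0281. H2B.1 itself had 26.5, 38.9 and 39.3 TPM in sgs3 against 73.4, 44.8 and 49.9 TPM in WT and did not pass (-0.66, limma adjusted p = 0.156; 0.35 after scaling).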

How the data were processed

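Per the labels, grain RNA was made into SMARTer mRNA libraries, 3 of sgs3 and 3 of WT. Per the submitters' processing notes, the tools were DESeq2 1.12.4, RSEM, StringTie, Bowtie2 and HISAT2 2.1.0, with no role stated; the sources used here name no genome build. The gene table deposited by the authors holds TPM with 2 decimals, although it is named as counts, and no scaling between libraries is recorded. Depth is therefore unknown. The splicing tables deposited by the authors hold junction reads, inclusion as a fraction from 0 to 1, and an FDR, a p-value adjusted by the authors in a test whose program is not given. Their read headings contradict their inclusion headings: in all 12313 events, apart from 33 without reads, reads headed WT gave the inclusion headed sgs3 to within 0.0011, so groups follow the inclusion headings. Libraries in these tables carry no number.

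Genes with at least 1 TPM in at least 3 of the 6 libraries were fitted with limma 3.58.1 (R 4.3.3, mean-variance trend) on log2(TPM + 1), two-sided, with Benjamini-Hochberg adjustment over all 16352 tested genes. Fold changes on this scale understate changes of genes with low TPM. Splicing events whose every library had 20 or more junction reads were fitted with a quasi-binomial logistic model with limma-moderated dispersion, adjusted over 5471 events. Both models were run on simulated data only to see whether shifts put in were found. Values there were drawn independently, without the makeup differences shared across these libraries, so error rates here were not measured. Tables and figures used matplotlib 3.10.9, scipy 1.17.1, pandas 2.3.3 and numpy 2.4.6 in Python 3.11.15.

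Alternatives were median-of-ratios scaling, TPM rescaled without storage genes, a pseudocount of 0.1, no filter, a filter of 5 TPM, no variance trend, each library left out, the replicate number as a block and an adjusted p under 0.01. The members and lists were chosen with earlier results of these data known. Named members were all called ones, the 3 with the smallest p and the 2 most abundant of each class, those with tested splicing events, and the 3 partner genes with the smallest p per list; members named outside this rule were chosen after their values were seen. Promoter and protein sequences of the members were not analysed here.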

Additional observations from a re-analysis of the deposited data

How the results depend on the processing

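The count of 19 fallen histone genes rests on adjusted p-values close to 0.05. It was 2 after median-of-ratios scaling, 2 with storage genes removed, 1 with the replicate number as a block (0.501% of all genes), 0 without a filter (33 lower at an unadjusted p under 0.05) and 0 at an adjusted p under 0.01. It ranged from 0 to 36 as single libraries were left out, and was 18 with a pseudocount of 0.1 (24.0% of all genes), 21 of 43 tested with a filter of 5 TPM (43.6% of all genes) and 19 with no variance trend (26.5% of all genes). In these settings on TPM 0 histone genes rose, with at most 1 higher at an unadjusted p under 0.05. The 2 genes called after scaling became 0 with the replicate block (17 lower and 2 higher at an unadjusted p under 0.05) and 0 to 20 as libraries were left out, with 0 to 1 rising; the 20 and the 1, without sgs3 replicate 3, stand beside 8.64% of all genes falling and 5.17% rising. Deviations from the group means of same-numbered libraries correlated at -0.527, 0.212 and -0.091 across genes. Those of sgs3 replicate 1 and WT replicate 2 correlated at 0.541. With 3 libraries per group these values cannot tell whether same-numbered libraries were handled together. The cause of these shifts was not tested.

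The median log2 fold change was -0.85 after scaling, -1.45 to -1.98 under the other settings with all libraries, and -2.20 to -1.22 with single libraries left out. Log2 ratios of summed TPM, sgs3 over WT, were -0.68 for H1, -1.70 for H2A, -1.35 for H2B, -0.98 for H3, -1.76 for H4 and -1.30 for all members. After scaling they were 0.36 for H1, -0.62 for H2A, -0.29 for H2B, 0.0889 for H3, -0.72 for H4 and -0.22 for all; with storage genes removed H3 gave -0.59. Named genes whose fold change turned positive after scaling were LOC_Os01g05900 (0.14), LOC_Os02g39030 (0.18), LOC_Os03g17084 (0.35), LOC_Os03g27310 (0.25), LOC_Os03g58470 (0.48), LOC_Os04g18090 (0.23), LOC_Os06g04030 (0.46) and LOC_Os07g08710 (0.15), and, outside the rule, LOC_Os06g04020 (0.87), LOC_Os07g36140 (0.70), LOC_Os05g38640 (0.50) and LOC_Os06g06480 (0.60). The fallen chaperone and replication genes numbered 0 and 0 after scaling, with 8 and 20 at an unadjusted p under 0.05. Splicing calls in histone genes stayed at 0 with a minimum of 10 reads (2 at an unadjusted p under 0.05) and with no minimum difference (1). Leaving out libraries was not run for splicing, because libraries there carry no number. Without read depths, sampling error of low TPM values was not estimated.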
